A study of Mus musculus with 19 samples.

Results

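The step from EILP to ILCp was taken as the comparison of the 5 ILCp libraries with the 7 EILP libraries over all 18607 genes of the deposited expression table, 12 of the 19 RNA-seq libraries of the series. EILP are early innate lymphoid progenitors and ILCp are the innate lymphoid cell (ILC) progenitors of the next stage. Both were sorted from bone marrow of C57BL/6 mice as Kit+ cells with low lineage staining, low Ly-6D, low CD122 and high GFP. Surface IL-7Rα was intermediate or low and Thy-1.2 low in the EILP gate, whereas the ILCp gate took Thy-1.2+, α4β7+ cells with high IL-7Rα. All EILP and ILCp 1 to ILCp 3 came from Tcf7EGFP/+ mice, in which GFP follows the gene of the transcription factor TCF-1. ILCp 4 and ILCp 5 came from Plzf-cre-GFP/+ mice, in which GFP follows the gene of PLZF, so these 2 libraries differ from the rest in the reporter that the gate read. The 7 ALP libraries (Kit+ lymphoid progenitors of Tcf7EGFP/+ mice, positive for IL-7Rα and high for Flt3) entered the model to estimate batch and spread. By way of the batch terms they also carry weight in the fold changes. Nothing in the labels says that each library is another animal. The p-values therefore refer to the scatter among these libraries, part of which may be technical.

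Innate lymphoid cells are lymphocytes without rearranged antigen receptors that settle in tissues and answer cytokines. Their progenitors in bone marrow turn on TCF-1, then GATA-3, Id2 and PLZF, and lose the potential for T and B cells. The surface proteins that mark the later progenitor, such as IL-7Rα, also carry survival signals, and chemokine receptors such as CXCR6 guide movement within and out of the marrow. The 4 genes taken as marks of this step were Ets1, Il7r, Tgfbr2 and Cxcr6. They were higher in all 5 ILCp libraries than in all 7 EILP libraries, as were 3.35% of all genes.

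Sequencing batches were only partly shared by the groups. ILCp 1 and EILP 1 were in batch 1, ILCp 2 and EILP 2 in batch 2, and ILCp 3, ILCp 4, ILCp 5 and EILP 5 in batch 4, while EILP 3 and EILP 4 (batch 3) and EILP 6 and EILP 7 (batch 5) had no ILCp beside them. With batch in the limma model, EILP 5 carried 33.0% of the EILP side of each fold change, EILP 1 22.5%, EILP 2 21.7%, EILP 6 and EILP 7 11.4% each, and EILP 3 and EILP 4 none. On the ILCp side ILCp 2 carried 27.0%, ILCp 1 26.1% and ILCp 3 to ILCp 5 15.6% each. Through the batch terms the ALP libraries had weights too. These were −0.14 for ALP 4, −0.0354 for ALP 1, −0.0265 each for ALP 2 and ALP 3, and 0.076 each for ALP 5 to ALP 7. On that scale EILP 6 and EILP 7 had −0.114 each. Fits without 1 library left out EILP or ILCp libraries only. Values are log2 CPM (log2 of counts scaled to library size) that already had batch differences taken out, so levels in the text are batch-cleared and their scatter within a group is smaller than in the raw data. As batch 3 held EILP 3 and EILP 4 alone, the clearing set their mean to the EILP mean. Their mean place beside ILCp therefore follows from the other batches, and counts over all 7 EILP include them. The depth of each library is unknown. Over 9351 genes with a mean level above 2, correlations were 0.675 to 0.900 between EILP libraries, 0.721 to 0.904 between ILCp libraries and 0.396 to 0.883 between the groups.

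Of the 18607 genes, 598 differed between ILCp and EILP at an adjusted p below 0.05 (limma, Benjamini-Hochberg), a background of 3.21%. Of these, 327 rose (1.76% of all genes) and 271 fell (1.46%). The rises were larger: their median was 2.08 log2 units, and 1.75 for those whose EILP level was above the zero level (the value the table gives to genes without reads), against −1.14 for the falls and −0.08 for all genes. A difference of 1 or more was seen in 277 of the 327 rises and in 157 of the 271 falls. Highly expressed genes supplied most of the falls, with 212 of 271 above a mean level of 4.81 log2 CPM, the bound of the top 6202 genes, and 7 among the bottom 6203. Rises were spread more evenly, with 187 in the top set, 80 in the middle and 60 in the bottom. Median centring moved the split, to 279 rises and 390 falls (41.7% rises against 54.7%), while quantile normalization gave 308 and 281 (52.3%). Among genes above the median level alone there were 289 rises and 358 falls (44.7%). At an unadjusted p below 0.05 stood 1371 genes higher (7.37%) and 1726 lower (9.28%) in ILCp.

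**Figure D1:**
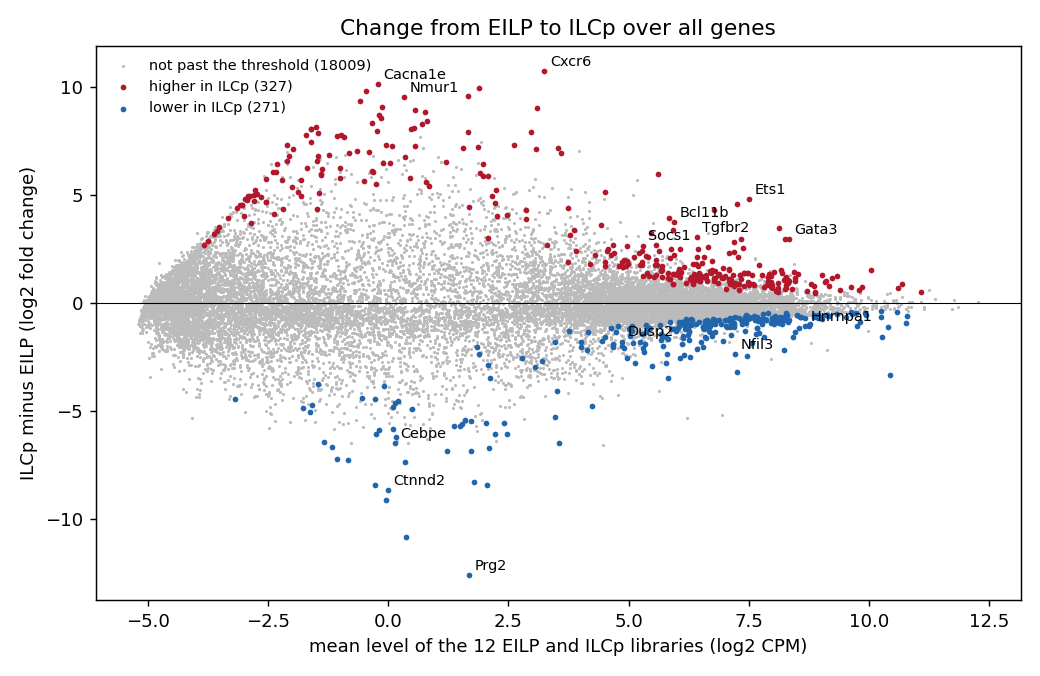
Log2 fold change of ILCp against EILP (y axis) by mean level over the 12 libraries in log2 CPM (x axis), 1 point per gene, with the 327 higher and 271 lower genes in colour and selected genes named. Rises reach beyond 10 log2 units at low mean levels, while most falls lie at high mean levels with differences near 1.

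Groups were apart in most of these genes. All 5 ILCp libraries lay above all 7 EILP libraries in 286 of the 327 rising genes, where 3.35% of all genes did so, and below them in 247 of the 271 falling genes, where 5.34% of all genes did so. Within batches the direction repeated: 308 rising and 261 falling genes had the sign of the fit in batches 1, 2 and 4 alike, and 26.3% of all genes kept one sign in the 3 batches. The median within-batch difference of the rising genes was 2.05, 1.84 and 1.88 in batches 1, 2 and 4, and of the falling genes −1.04, −1.31 and −1.03. These counts describe genes already picked by the same values and support nothing further. In them the mean place of EILP 3 and EILP 4 beside ILCp follows from the batch clearing.

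How many genes passed depended on single libraries. Without EILP 5, the EILP library that shares a batch with 3 of the ILCp, 224 genes passed, of which 203 were among the 598. Dropping ILCp 2 left 316, EILP 2 355 and ILCp 1 384, while leaving out ILCp 3 gave 615. No gene of the 598 changed sign in any fit without 1 library. The comparison within batch 4 alone, 1 EILP against 3 ILCp, passed 597 genes of which 27 were among the 598, and 1 of the 598 had the other sign there. Fits of the ILCp and EILP libraries without ALP passed 183 genes, and fits without batch 2 or batch 4 passed 259 and 258.

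**Figure D2:**
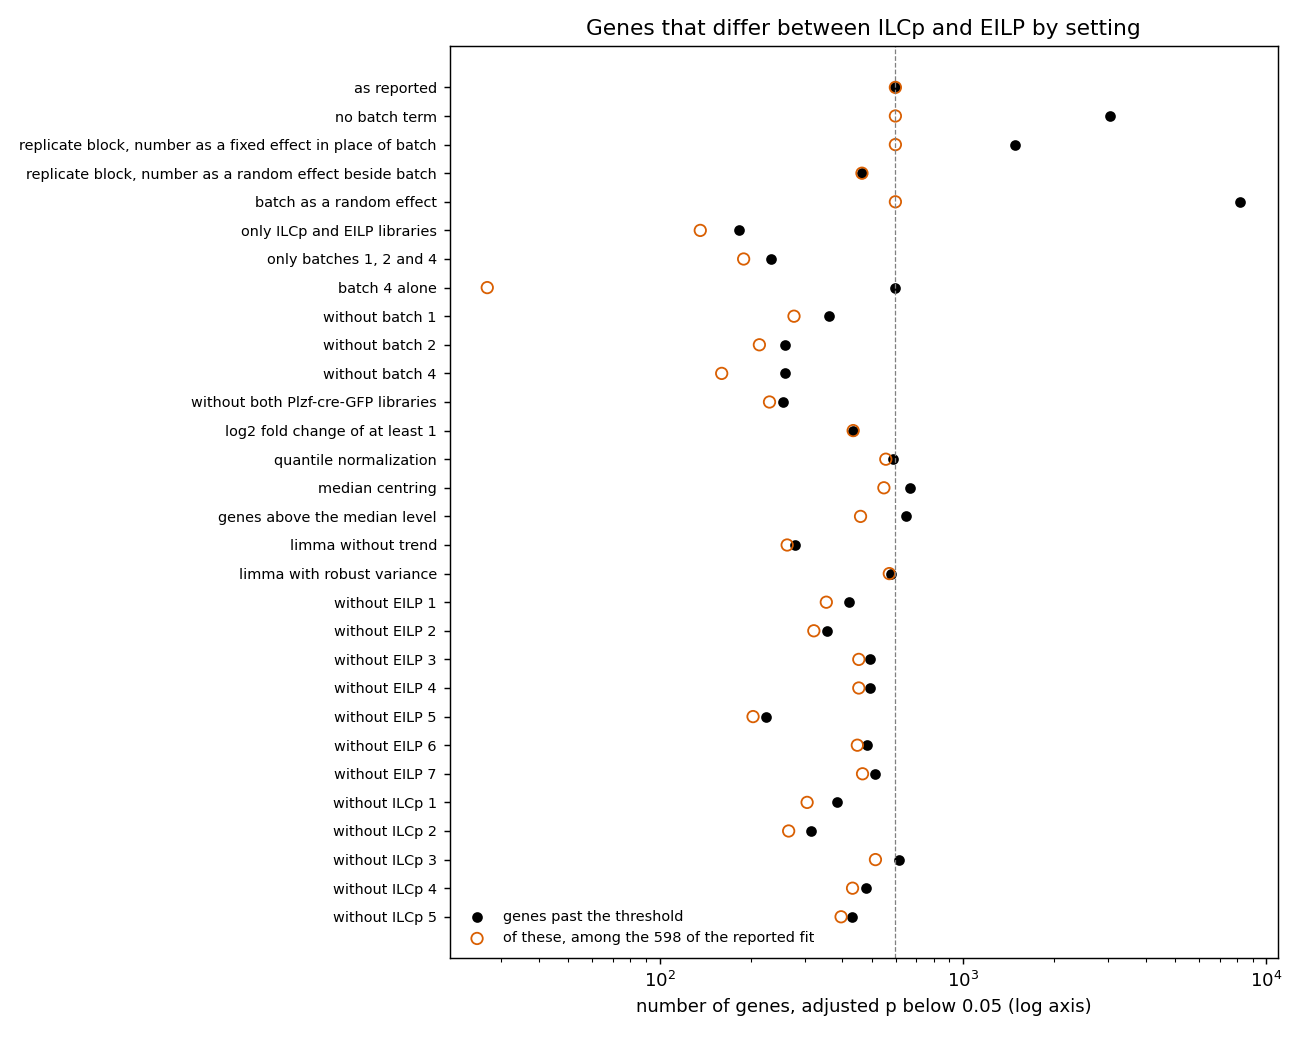
Number of genes with adjusted p below 0.05 between ILCp and EILP (x axis, log scale) under each setting (y axis); filled points count all genes, open points those among the 598 reported, and the dashed line marks 598. Fits without a batch term or with batch as a random effect pass 3047 and 8201 genes, and the fit without EILP 5 passes 224.

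Leaving out the 2 Plzf-cre-GFP libraries changed the number of genes that passed and the direction of none of the 598. Without ILCp 4 and ILCp 5, 254 genes passed (130 rises and 124 falls), of which 230 were among the 598, 38.5% of the 598 and 90.6% of the 254. All 598 kept a fold change within 1.5 times its value and an unadjusted p below 0.05, the median rise being 1.98 in place of 2.08 and the median fall −1.11 in place of −1.14. The median standard error of these genes was 0.32 with and without them, the 598 having been picked by the fit that used both. Subtracting from each ILCp library the EILP library of its batch, the median of the 327 rising genes was 1.92 in ILCp 4 and 2.37 in ILCp 5, beside 2.05, 1.84 and 1.65 in ILCp 1, ILCp 2 and ILCp 3. For the 271 falling genes it was −0.99 and −1.23, beside −1.04, −1.31 and −0.78. The Tcf7EGFP ILCp 3, sequenced in the same batch, gave the smallest medians of the 5, and the ILCp 5 rises were the largest.

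**Figure D3:**
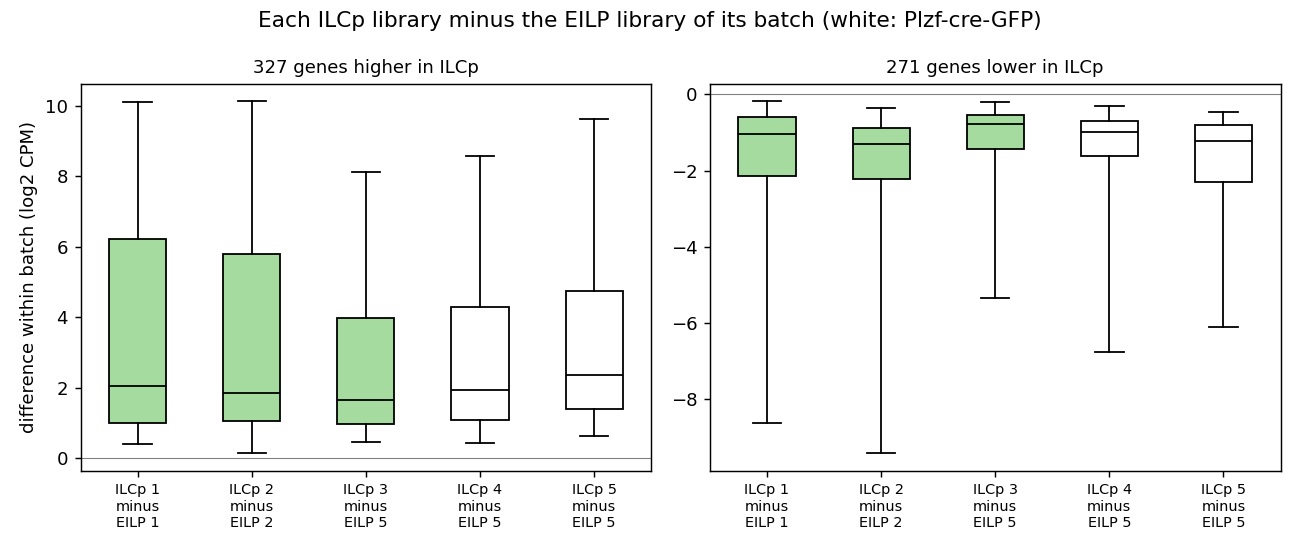
Difference of each ILCp library from the EILP library of its batch in log2 CPM (y axis) over the 327 rising (left) and 271 falling genes (right); boxes show quartiles and median, whiskers the 5th and 95th percentiles, white boxes the Plzf-cre-GFP libraries. Medians of the white boxes fall within or near the range of the Tcf7EGFP libraries.

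Transcription factors of the innate lymphoid programme gave 4 rises and 1 fall among 15 listed genes, with a median of 1.51. Beside this list and those below, 1.76% of all genes rose and 1.46% fell. Ets1 (chromosome 9, 32636221 to 32757820, plus strand, GRCm38), a factor that NK cells and T cells need, ran from 4.49 through a median of 5.71 to 6.41 in EILP and stood at 10.67, 10.47, 9.65, 9.97 and 10.79 in ILCp 1 to ILCp 5. No ILCp library came near the EILP range, the smallest gap between libraries being more than 3 log2 units. The rise was 4.81 ± 0.44 (SE, adjusted p = 1.97e-05, limma), 6.17, 5.67 and 4.35 within batches 1, 2 and 4, and 4.76 without the Plzf-cre-GFP libraries. Gata3, the master factor of the ILC2 fate, ran from 6.36 through a median of 7.24 to 7.57 in EILP and stood at 9.60, 9.82, 9.70, 10.11 and 11.09 in ILCp, with no overlap and ILCp 5 highest. It rose by 2.96 ± 0.46 (adjusted p = 0.00249, limma), and by 2.61 without ILCp 4 and ILCp 5 (adjusted p = 0.025). Bcl11b, a factor of T cell and ILC2 identity, ran from 3.76 through a median of 4.43 to 4.92 in EILP and stood at 8.43, 8.19, 7.34, 8.30 and 8.44 in ILCp, a rise of 3.75 ± 0.54 (adjusted p = 0.00163, limma). ILCp 3 was the lowest ILCp for Bcl11b and still above every EILP. Id2, an inhibitor of E proteins, already ran from 8.74 through a median of 9.45 to 9.64 in EILP and reached 10.71, 11.23, 10.58, 10.86 and 11.30 in ILCp. Its rise of 1.53 ± 0.28 (adjusted p = 0.00729, limma) lost its call without EILP 5 (adjusted p = 0.0699) and without the Plzf-cre-GFP libraries (0.0591).

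Nfil3, a factor needed for innate lymphoid development from early progenitors, fell. EILP libraries were tightly grouped, from 8.01 through a median of 8.22 to 8.28, and ILCp stood at 6.25, 6.68, 5.00, 6.09 and 5.14. All ILCp lay below all EILP, with ILCp 3 and ILCp 5 lowest, and the difference was −2.36 ± 0.40 (adjusted p = 0.00501, limma), −2.22 without ILCp 4 and ILCp 5 (adjusted p = 0.0379).

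Tcf7 and Zbtb16, the genes whose alleles carried the reporters, did not pass. Tcf7 ran from 8.47 through a median of 10.45 to 13.07 in EILP and was 9.56, 9.25, 8.95, 9.46 and 8.96 in ILCp, inside that range, with a fold of −1.28 ± 1.41 (adjusted p = 0.717, limma). ILCp exceeded EILP in each of batches 1, 2 and 4 by 0.16, 0.79 and 0.36, and the fit of ILCp and EILP without ALP gave 0.43 (adjusted p = 0.274). Zbtb16 behaved alike, with 5.79 through a median of 6.70 to 8.80 in EILP, 7.40, 6.99, 5.49, 6.00 and 6.54 in ILCp and −0.49 ± 1.12 (adjusted p = 0.881, limma) against within-batch differences of 0.75, 0.93 and 0.22. Rora and Tox, both factors of the ILC programme, were above every EILP in all 5 ILCp but missed the threshold, at 2.99 ± 1.11 (adjusted p = 0.172) and 0.74 ± 0.29 (0.194, limma). Rora passed in the fit of ILCp and EILP without ALP (3.38, adjusted p = 0.00892, limma). The SD of its level was 2.41 in ALP, 0.59 in EILP and 0.49 in ILCp. Leaving out ALP also changes the batch terms and the residual degrees of freedom (6 in place of 12). Why the Rora call changed was not tested. Tox2 was 1.51 ± 0.90 (0.433), and Tbx21 and Eomes, the factors of ILC1 and NK cells, 4.21 ± 1.83 (0.258) and 2.10 ± 1.49 (0.52), with overlapping groups in these 3.

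**Figure D4:**
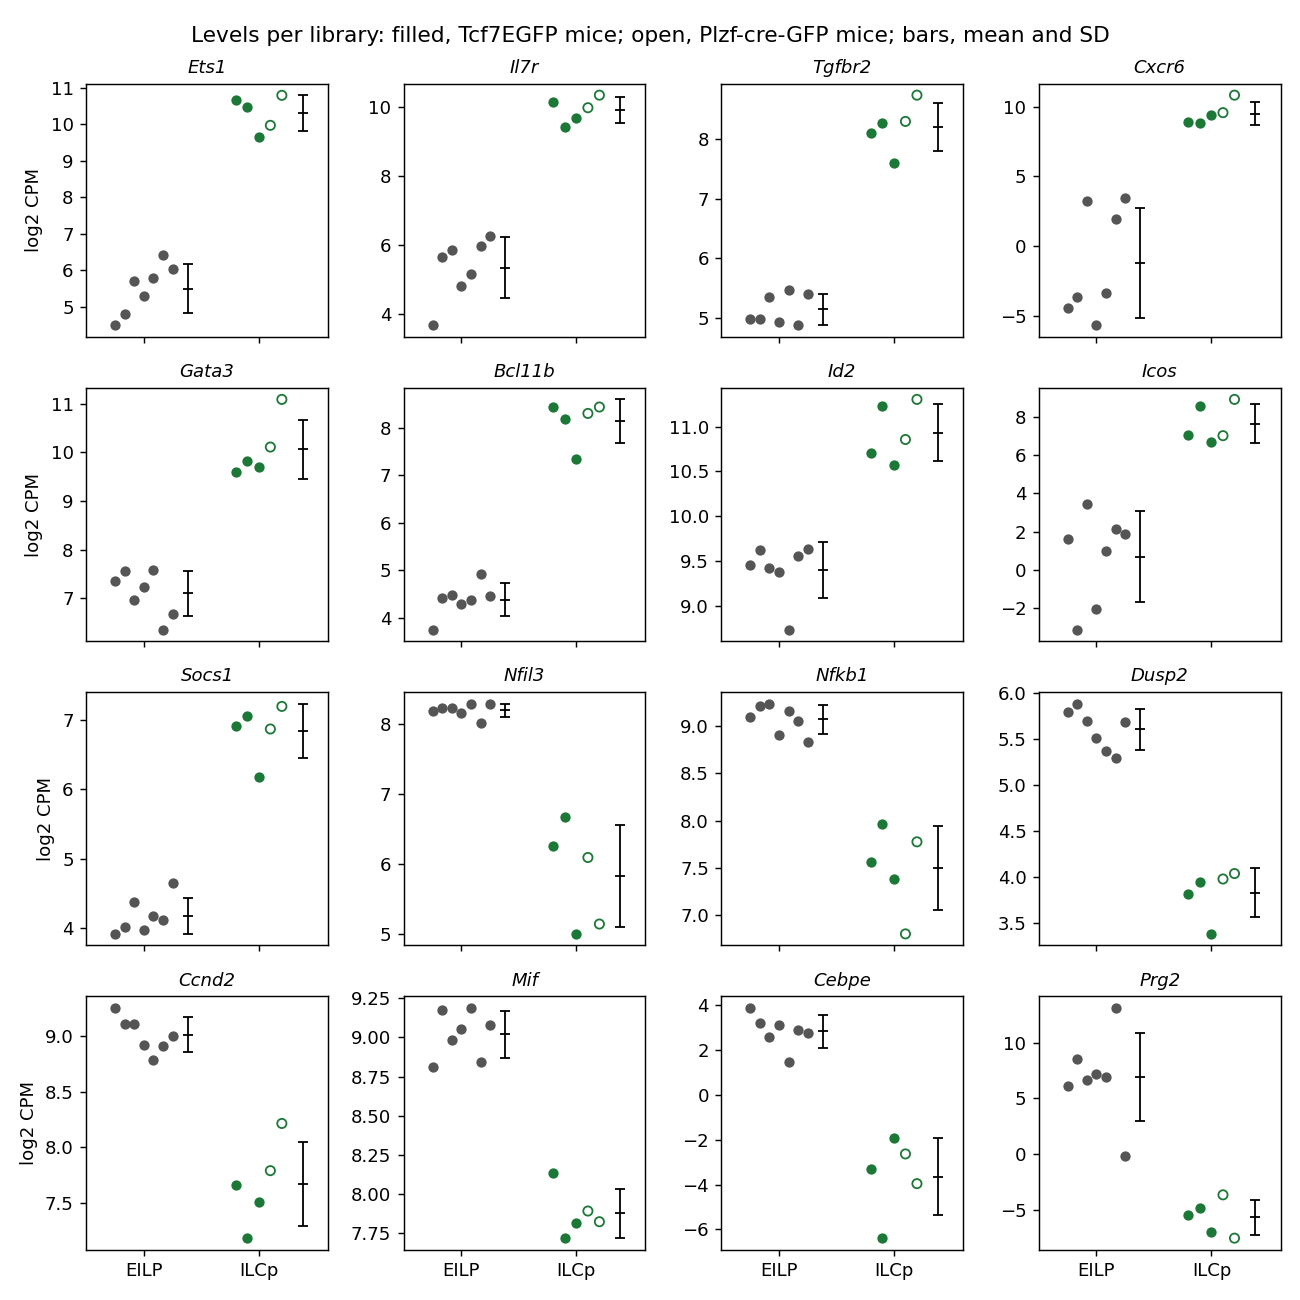
Levels of 16 genes in log2 CPM (y axes, each with its own range that does not start at 0) in the 7 EILP and 5 ILCp libraries, filled for Tcf7EGFP mice and open for Plzf-cre-GFP mice, with the mean and SD beside each group. The groups do not overlap in any of the 16, all of which were picked from genes that passed. The open points lie among the filled ILCp points or near them.

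Receptors of the common gamma chain and their signalling gene Jak1 gave 4 rises and 1 fall among 11 genes, with a median of 0.01. Il7r was part of the gate, so its rise describes the sort: 3.67 through a median of 5.66 to 6.25 in EILP, 10.16, 9.44, 9.69, 9.99 and 10.35 in ILCp and 4.58 ± 0.54 (adjusted p = 0.000283, limma), 4.42 without the Plzf-cre-GFP libraries and past the threshold in each fit without 1 library. Il2rg, the gamma chain itself, was not gated on. It ran from 6.65 through a median of 7.08 to 7.31 in EILP and stood at 8.82, 8.57, 8.21, 8.53 and 9.55 in ILCp, with no overlap and a rise of 1.75 ± 0.27 (adjusted p = 0.00223, limma). Jak1, the kinase that IL-7Rα binds, rose by 1.04 ± 0.14 (adjusted p = 0.0012, limma). Its EILP levels ran from 8.40 through a median of 8.60 to 8.93 and its ILCp levels were 9.63, 9.54, 9.54, 9.83 and 9.97, again without overlap. Il2ra, the high-affinity IL-2 receptor chain, was at the zero level in EILP and at 2.26, −2.95, 2.96, 2.11 and 5.25 in ILCp (adjusted p = 0.0168, limma). ILCp 2 was tied with EILP 2, at the value batch 2 gives to genes without reads, so batch 2 showed no rise. The Il2ra call was lost without EILP 5 (0.122) or ILCp 1 (0.0568). Il21r fell by 1.56 ± 0.34 (adjusted p = 0.0225, limma), a call lost without EILP 1 (0.0645), EILP 5 (0.0649) or ILCp 2 (0.0663). Il2rb, the gene of the CD122 that the gate kept low, did not pass at −0.53 ± 1.47 (adjusted p = 0.905), while its within-batch differences were 0.01, 1.91 and 1.00.

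Feedback and downstream genes of cytokine signalling gave 2 rises among 18 Stat and Socs genes. Socs1, the inhibitor of JAK kinases, ran from 3.92 through a median of 4.12 to 4.66 in EILP and stood at 6.92, 7.05, 6.18, 6.87 and 7.20 in ILCp. Every ILCp library lay above every EILP library, ILCp 3 lowest, and the rise was 2.66 ± 0.30 (adjusted p = 0.000206, limma) and 2.54 without the Plzf-cre-GFP libraries. Stat4 rose by 1.65 ± 0.36 (adjusted p = 0.0217), lost without EILP 5 (0.0699), ILCp 1 (0.0785) or ILCp 2 (0.0547), and without both Plzf-cre-GFP libraries (0.0653).

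TGF-β receptors and Smads gave 3 rises and no fall among 17 genes, with a median of 0.60. Tgfbr2 (chromosome 9, 116084293 to 116175360, minus strand), the receptor chain that binds the ligand, varied little within groups. EILP ran from 4.87 through a median of 4.98 to 5.46 and ILCp stood at 8.09, 8.27, 7.60, 8.29 and 8.74, so the groups were apart by more than 2 log2 units. The rise was 3.06 ± 0.26 (adjusted p = 9.24e-06, limma), 3.11, 3.30 and 2.75 within batches 1, 2 and 4 and 2.86 without the Plzf-cre-GFP libraries. Smad1, a transducer of the BMP branch, and Ski, a repressor of Smads, rose by 1.27 ± 0.29 (adjusted p = 0.0278) and 1.40 ± 0.35 (0.0421, limma). Smad1 lost its call without EILP 1 (0.0733), EILP 5 (0.0675), ILCp 1 (0.0858) or ILCp 2 (0.0879), and Ski without any one of 9 of the 12 libraries (highest adjusted p 0.127).

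Chemokine receptors gave 6 rises and no fall among 18 genes (Ccr4, Ccr8, Cxcr6, Xcr1, Ccr2 and Ccr7), with a median of 1.94. Cxcr6 (chromosome 9, 123806475 to 123811760, plus strand), the receptor of CXCL16, was scattered in EILP, from −5.71 through a median of −3.36 to 3.43, and stood at 8.94, 8.81, 9.39, 9.58 and 10.84 in ILCp. Of the 7 EILP, 3 were above 1 and 4 below −3, and none came near the lowest ILCp. The mean of EILP 3 (3.25) and EILP 4 (−5.71) was set to the EILP mean by the batch clearing. Among the 327 rises its 10.74 ± 2.17 (adjusted p = 0.0141, limma) was the largest, but the size depends on the zero level and the call was lost without EILP 5 (0.101) or without ILCp 4 and ILCp 5 (0.0904). Ccr4 gave the firmest call, with −4.62 through a median of −4.44 to −1.19 in EILP and 3.62, 3.06, 2.81, 3.03 and 3.71 in ILCp, a rise of 6.97 ± 0.93 (adjusted p = 0.000992, limma). Ccr2 was well expressed in both groups, from 6.25 through a median of 7.01 to 8.11 in EILP and 9.53, 10.90, 9.64, 9.55 and 10.29 in ILCp, and rose by 2.99 ± 0.53 (adjusted p = 0.00661). Xcr1 rose by 8.09 ± 1.57 (adjusted p = 0.0114, limma). Without EILP 5 both missed the threshold (Ccr2 0.0683, Xcr1 0.0652). The whole list passed 2 of 18 genes without the Plzf-cre-GFP libraries and 1 without EILP 5.

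Windows just before the start of 3 of these genes are shown because they are rising (Tgfbr2, Cxcr6) and falling (Nfil3) genes named above, with matches of 5 lymphoid factor motifs in capitals. They come from the RefSeq promoter table of GRCm38.p6, cut at annotated exons, and are printed 5′ to 3′ on the gene's strand. Tgfbr2 is chr9:116175364-116175613 (minus strand), Cxcr6 is chr9:123806227-123806474 (plus strand) and Nfil3 is chr13:52981074-52981289 (minus strand).
Tgfbr2: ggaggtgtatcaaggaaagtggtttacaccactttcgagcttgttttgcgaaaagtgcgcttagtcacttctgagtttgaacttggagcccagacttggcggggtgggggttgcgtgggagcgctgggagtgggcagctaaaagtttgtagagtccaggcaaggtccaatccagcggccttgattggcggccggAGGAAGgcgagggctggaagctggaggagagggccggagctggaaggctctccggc
Cxcr6: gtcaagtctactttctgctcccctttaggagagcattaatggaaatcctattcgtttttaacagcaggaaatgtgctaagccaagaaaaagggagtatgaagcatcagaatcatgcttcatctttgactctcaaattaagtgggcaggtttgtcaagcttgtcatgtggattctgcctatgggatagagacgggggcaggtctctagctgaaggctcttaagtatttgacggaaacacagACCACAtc
Nfil3: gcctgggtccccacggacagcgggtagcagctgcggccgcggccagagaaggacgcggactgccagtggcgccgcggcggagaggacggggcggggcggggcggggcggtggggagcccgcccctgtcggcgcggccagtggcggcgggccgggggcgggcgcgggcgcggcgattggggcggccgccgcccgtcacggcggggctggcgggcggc
Motifs were counted on both strands in 11454 promoter windows of 1 length from that table, and in those of 238 rising and 202 falling genes. The letters AGGAAG, a core bound by ETS factors, were in 34.7% of all promoters, 46.2% of the rising and 30.7% of the falling genes. A second ETS core, CCGGAAG, was in 16.5% of all, 9.66% of the rising and 16.3% of the falling genes. For RUNX factors TGTGGT was in 13.3%, 13.4% and 17.3%. For the GATA family the letters AGATAA gave 7.08%, 7.56% and 6.44%. For TCF-1 and its relatives CTTTGAT gave 2.48%, 2.94% and 3.47%. The Tgfbr2 window holds AGGAAG, the Cxcr6 window holds ACCACA, the reverse of TGTGGT, and no match lies in the Nfil3 window. These are letter matches, and binding was not measured.

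Integrins and adhesion genes gave 3 rises among 18. Itgal and Itgb2, the chains of LFA-1, rose by 1.37 ± 0.23 (adjusted p = 0.0055) and 1.32 ± 0.27 (0.0145, limma). Itgal ran from 7.61 through a median of 7.93 to 8.33 in EILP and stood at 8.95, 9.33, 9.09, 9.22 and 10.02 in ILCp. No EILP reached an ILCp in either gene, and ILCp 2 was the lowest ILCp for Itgb2. Without EILP 5 both missed the threshold (0.0562 and 0.087), and Itgb2 also without ILCp 1 (0.0568) or the Plzf-cre-GFP libraries (0.0903). Selplg, the ligand of selectins, rose by 0.76 ± 0.19 (adjusted p = 0.0364), lost without any one of 9 of the 12 libraries. Itga4 and Itgb7, the chains of the α4β7 that gated ILCp, did not pass, at −0.62 ± 0.31 (adjusted p = 0.333) and 0.15 ± 0.24 (0.82, limma). Thy1, likewise gated, rose by 5.23 ± 0.95 (adjusted p = 0.00755), lost without EILP 5 (0.0556), and Kit by 0.48 ± 0.12 (0.0362), lost without any one of 8 libraries.

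**Figure D5:**
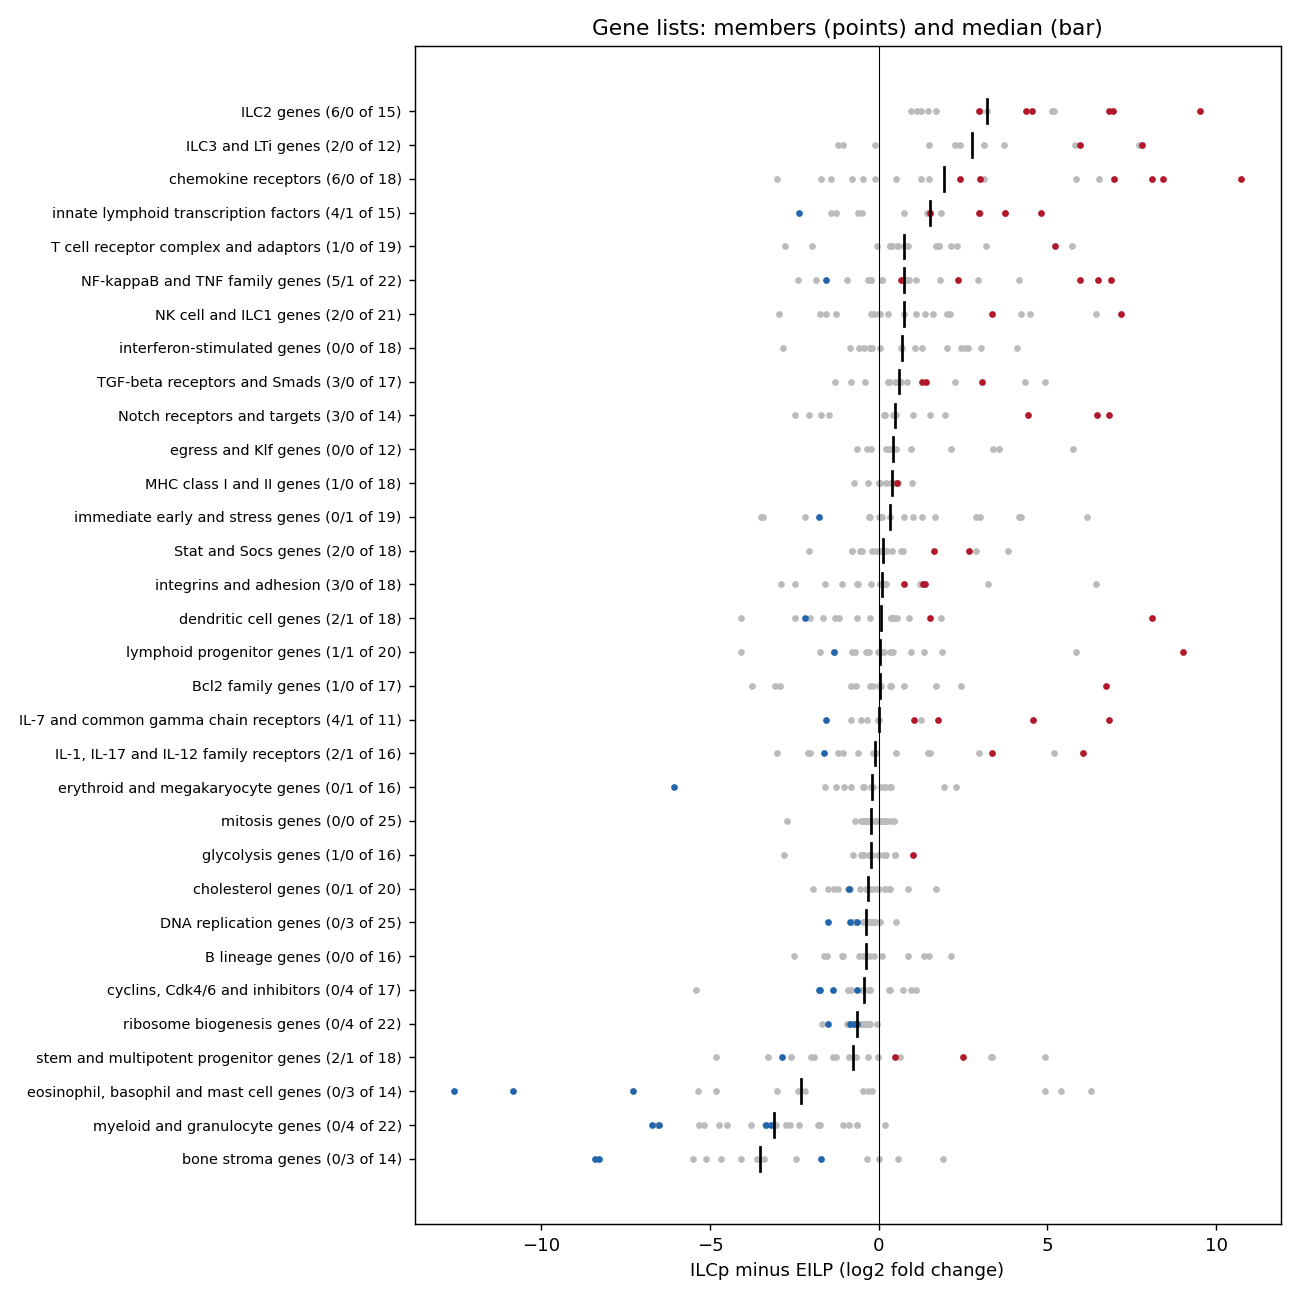
Log2 fold change of each member (x axis) of 32 gene lists (y axis), coloured where the gene passed (higher or lower in ILCp), with a bar at the median and the numbers of rises, falls and members in parentheses. Lists of ILC2, ILC3 and chemokine receptor genes have the highest medians, and those of stroma, myeloid and eosinophil genes the lowest.

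ILC2 genes gave 6 rises and no fall among 15 genes (Icos, Nmur1, Gata3, Il2ra, Areg, Il4), with a median of 3.21. The fold was positive in all 15, but 5 of them were at the zero level in EILP. From there a fold can hardly be negative, and its size depends on the value the table gives to genes without reads. The share of all genes with a positive fold was not counted, and the list was chosen with earlier results of these data known. Icos, a costimulatory receptor, ran from −3.12 through a median of 1.63 to 3.44 in EILP and stood at 7.04, 8.55, 6.65, 7.002 and 8.89 in ILCp, a rise of 6.93 ± 1.25 (adjusted p = 0.00709, limma) that missed the threshold without the Plzf-cre-GFP libraries (0.0541). Nmur1, the neuromedin U receptor, was near the zero level in most EILP, from −6.45 through a median of −4.47 to 2.10, and at 5.71, 5.70, 5.20, 5.10 and 7.74 in ILCp (adjusted p = 0.00242). EILP 6 was the EILP with a clear Nmur1 level and ILCp 5 the highest ILCp. Il1rl1, the IL-33 receptor, and Il17rb, the IL-25 receptor, did not pass at 5.19 ± 1.74 (adjusted p = 0.128) and 1.45 ± 1.09 (0.554), and Arg1 was 5.13 ± 1.73 (0.131, limma). Without the Plzf-cre-GFP libraries 2 of the 15 passed and without EILP 5 3 of 15.

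ILC3 and lymphoid tissue inducer genes gave 2 rises among 12, with a median of 2.77. Lta, encoding lymphotoxin α, ran from −6.85 through a median of −4.22 to −0.53 in EILP and stood at 3.39, 4.59, 3.03, 3.21 and 3.62 in ILCp, with no overlap (adjusted p = 0.00995, limma; 0.0666 without EILP 5 and 0.0508 without the Plzf-cre-GFP libraries). Ltb, lymphotoxin β, rose by 5.98 ± 1.37 (adjusted p = 0.027), a call lost without any one of 6 libraries (EILP 3, EILP 4, EILP 5, ILCp 1, ILCp 2 and ILCp 5). EILP 2 had an Ltb level of −2.59 while the other EILP were positive, and the rise without EILP 2 was 3.87. NK cell and ILC1 genes gave 2 rises among 21, Il18r1 (3.37 ± 0.79, adjusted p = 0.0294, limma) and Klrb1b (7.19 ± 1.59, 0.0228), lost without 7 and 5 of the libraries, and IL-1, IL-17 and IL-12 family receptors 2 rises and 1 fall among 16. Il17re rose by 6.04 ± 1.31 (adjusted p = 0.0204, limma), lost without EILP 1 (0.0656), ILCp 1 (0.0906) or ILCp 2 (0.068). The fall counted in that receptor list was Il10ra, an IL-10 receptor chain outside these families. It fell by 1.62 ± 0.42 (0.0489, limma), lost without any 1 of the 12 libraries. Of the 19 genes listed as T cell receptor complex and adaptors only Thy1 passed, a surface antigen that was part of the gate. In 16 B lineage genes none did.

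NF-κB and TNF family genes gave 5 rises (Tnfrsf25, Tnfrsf18, Nfkbia, Nfkbiz, Ltb) and 1 fall among 22 genes. Tnfrsf18, the GITR receptor, ran from 3.03 through a median of 3.65 to 4.34 in EILP and stood at 6.31, 6.12, 5.64, 5.28 and 6.90 in ILCp, a rise of 2.34 ± 0.43 (adjusted p = 0.00785, limma) with no overlap. Nfkb1, the precursor of the p50 subunit, was high in EILP, from 8.83 through a median of 9.10 to 9.24, and lower in every ILCp at 7.56, 7.97, 7.38, 6.80 and 7.78. Its difference was −1.57 ± 0.23 (adjusted p = 0.00163, limma) and −1.44 without ILCp 4 and ILCp 5. ILCp 4 had the lowest level. Nfkbiz, an atypical member of the IκB family, rose by 6.88 ± 1.54 (adjusted p = 0.0241) from near the zero level, a call lost without any one of 6 libraries.

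Among genes chosen by size or p, many of the rises were in genes nearly silent in EILP. Choice by size favours such genes, as the level filter could be passed through ILCp alone. Over all 327 rises the median EILP level was 4.90. At the zero level in EILP were 33 of the 327 (10.1%), beside 2449 of all 18607 genes. Cacna1e, a calcium channel subunit, ran from −5.68 through a median of −4.58 to −3.19 in EILP and stood at 6.49, 5.14, 4.90, 6.13 and 5.82 in ILCp, a rise of 10.13 ± 0.80 (adjusted p = 6.27e-06, limma). Fbxl21, an F-box protein, ran from −4.82 through a median of −3.88 to −3.00 and stood at 5.60, 5.33, 4.42, 5.15 and 5.42, a rise of 9.09 ± 0.75 (7.14e-06). Gulp1, Adh1, Gm973 and Gm12349 were at the zero level in EILP, and their ILCp levels ran from 2.42 to 4.25, 1.87 to 4.23, 2.44 to 4.23 and 0.68 to 3.04. No ILCp library was at the zero level for any of these, and the folds of Cacna1e and Fbxl21 depend on the value the table gives to genes without reads. Stab2, a scavenger receptor, She, Aqp3, an aquaporin, Ikzf3, encoding the lymphoid factor Aiolos, and Serinc2 also rose from low EILP levels, by 9.60 ± 1.35, 9.37 ± 1.52, 9.81 ± 1.75, 9.03 ± 1.63 and 8.33 ± 0.76 (adjusted p from 1.97e-05 to 0.00728, limma). Aqp3 missed the threshold without the Plzf-cre-GFP libraries (adjusted p = 0.0518). Slc9a9, a sodium-proton exchanger, had high levels in both groups, at 5.85 through a median of 6.12 to 6.39 in EILP and 8.50, 8.58, 7.98, 8.50 and 8.54 in ILCp, a rise of 2.30 ± 0.20 (adjusted p = 1.02e-05, limma). Xkrx and Npnt rose by 9.96 ± 1.72 and 8.94 ± 1.76, calls lost without EILP 5 (0.0525 and 0.0752).

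Part of the cell cycle genes fell, beside 1.46% of all genes. Of 17 cyclin, Cdk4/6 and inhibitor genes 4 fell and none rose (median −0.45), of 25 DNA replication genes 3 fell and none rose (median −0.36), and of 25 mitosis genes none passed (median −0.22). Ccnd2, cyclin D2, was at 8.79 through a median of 9.002 to 9.26 in EILP and 7.66, 7.18, 7.50, 7.79 and 8.21 in ILCp, a difference of −1.34 ± 0.18 (adjusted p = 0.00115, limma) with no overlap. Cdk4, its partner kinase, ran from 9.67 through a median of 9.75 to 9.97 in EILP and stood at 9.24, 9.13, 9.07, 9.33 and 9.02 in ILCp, a difference of −0.63 ± 0.11 (adjusted p = 0.00725, limma). E2f1, which drives entry into replication, differed by −0.86 ± 0.18 (0.0178, limma). ILCp lay below every EILP in all 3 genes, which were named because they passed. The same was seen in 5.34% of all genes and in 247 of the 271 falls. Cdkn1a, the inhibitor p21, fell by 1.73 ± 0.31 (adjusted p = 0.00729), lost without EILP 5 (0.057). Gins1 and Mcm7, parts of the replication machinery, fell too, with differences of −1.51 ± 0.33 and −0.63 ± 0.16 (adjusted p = 0.0217 and 0.0417, limma), Mcm7 losing its call without any 1 of the 12 libraries and Gins1 without EILP 1, EILP 5 or ILCp 1.

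Ribosome biogenesis genes gave 4 falls and no rise among 22 (Wdr12, Pes1, Npm1, Mybbp1a), where 1.46% of all genes fell. Their median was −0.63, beside −0.08 for all genes, with a negative fold in all 22. The share of all genes with a negative fold was not counted. At an unadjusted p below 0.05 (limma) stood 15 falls (9.28% of all genes). Wdr12, a factor of large subunit assembly, ran from 7.60 through a median of 7.67 to 7.98 in EILP and stood at 6.08, 6.29, 7.01, 6.11 and 5.74 in ILCp, a difference of −1.50 ± 0.23 (adjusted p = 0.00269, limma). ILCp 3 was the highest ILCp and still below every EILP. Npm1, nucleophosmin, and Mybbp1a fell too, with differences of −0.86 ± 0.16 (adjusted p = 0.00905) and −0.74 ± 0.14 (0.0109, limma), both lost without EILP 5 (0.0556 and 0.0752). Without EILP 5 1 of the 22 genes passed, and without the Plzf-cre-GFP libraries 2. Median centring moves the median of all genes from −0.08 to −0.17, so it does not turn these directions.

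Highly expressed genes of other kinds fell by 0.91 to 1.83 with small errors. Mif, a cytokine-like isomerase, ran from 8.81 through a median of 9.05 to 9.19 in EILP and stood at 8.13, 7.72, 7.82, 7.89 and 7.82 in ILCp, a difference of −1.14 ± 0.14 (adjusted p = 0.000488, limma). The difference was −1.54 ± 0.17 for Galk1, galactokinase (adjusted p = 0.000168), −0.91 ± 0.12 for Banf1, a chromatin-binding protein of the nuclear envelope (0.000746), −1.08 ± 0.16 for Hnrnpa1, an RNA-binding protein (0.00163), and −1.83 ± 0.26 for Gpr171 (0.00139, limma). Dusp2, a phosphatase that acts on MAP kinases, fell by 1.78 ± 0.23 (adjusted p = 0.000626, limma). It ran from 5.29 through a median of 5.69 to 5.89 in EILP and stood at 3.81, 3.94, 3.38, 3.97 and 4.03 in ILCp. These 6 genes, chosen by smallest p, separated the groups, as did 247 of the 271 falls. All 6 held in each fit without 1 library. Hnrnpa1, Npm1 and Mif have processed pseudogenes in the mouse genome, and reads may have been divided among near-identical copies, as they may for H2-D1, Klrb1b, Ly6a and other members of multigene families. Hk1, a hexokinase, rose among 16 glycolysis genes (1.02 ± 0.21, adjusted p = 0.0163, lost without EILP 5 at 0.0983).

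Some of the largest falls were in genes known from other cell types. The 22 myeloid and granulocyte genes gave 4 falls and no rise (median −3.12), the 14 eosinophil, basophil and mast cell genes 3 falls (median −2.29), and the 14 bone stroma genes 3 falls (median −3.52). Prg2, the eosinophil major basic protein, ran from −0.13 through a median of 6.89 to 13.12 in EILP and stood at −5.44, −4.78, −6.96, −3.64 and −7.52 in ILCp (adjusted p = 0.0116, limma). EILP 6 was far above the rest for Prg2 and Epx. Epx, eosinophil peroxidase, ran from −1.18 through a median of 4.82 to 10.88 in EILP and was at the zero level in ILCp (adjusted p = 0.00995), and both calls were lost without EILP 5 (0.0674 and 0.0695) and without the Plzf-cre-GFP libraries (0.0673 and 0.0623). Cebpe, a granulocyte factor, gave the smallest p of these lists, −6.50 ± 1.20 (adjusted p = 0.00847, limma), with 1.46 through a median of 2.91 to 3.89 in EILP and −3.33, −6.39, −1.93, −2.63 and −3.96 in ILCp. Mpo, myeloperoxidase, ran from 10.30 through a median of 12.20 to 13.14 in EILP and stood at 8.19, 6.16, 10.30, 10.30 and 7.47 in ILCp. Its difference was −3.33 ± 0.83 (0.0395, limma), lost without any one of 10 libraries, and −2.15 without ILCp 2. The groups overlap in Mpo only by a tie, as EILP 5, ILCp 3 and ILCp 4 hold the same value (10.2974). EILP 6 and EILP 7 are tied as well (12.2698). Why these values are equal was not tested, so they may not be measured levels. Col1a1, collagen of stroma, was highest in EILP 5 and fell at an adjusted p of 0.03 (limma). EILP 1 and ILCp 1 were tied for it (−0.78), so batch 1 showed no fall and the groups met at that value. The Col1a1 call was lost without any one of 8 libraries (0.197 without EILP 5) and without the Plzf-cre-GFP libraries (0.151). Pdgfrb fell by 1.70 ± 0.35 (0.0165, limma; 0.111 without EILP 5 and 0.0533 without ILCp 2).

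The summed level of the 22 myeloid genes was 1932 to 45136 CPM in EILP, with EILP 2 highest and EILP 5 lowest, and 436 to 2255 in ILCp. For the eosinophil, basophil and mast cell list it was 527 to 13787 in EILP, EILP 6 highest, and 132 to 821 in ILCp, and for stroma 93.3 to 1585 in EILP, EILP 5 highest, and 22.4 to 59.1 in ILCp. Below a mean of −2 log2 CPM lay none of the 22 myeloid genes in EILP and 3 in ILCp, 3 of 14 eosinophil, basophil and mast cell genes in EILP and 7 in ILCp, and 4 of 14 stroma genes in EILP and 10 in ILCp. As a background, 6203 of all 18607 genes had a mean over the 19 libraries at or below −2.04 log2 CPM. The share of all genes below −2 was not counted in each group. The list of T cell receptor complex and adaptor genes, which holds the gated Thy1, summed to 618 to 1074 CPM in EILP and 1257 to 4006 in ILCp. Of its 19 genes none in EILP and 2 in ILCp lay below −2. In bulk samples fewer cells of a type and less RNA per cell cannot be told apart, and the part of such cells in these falls and rises was not tested.

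Stem and progenitor genes changed in a few members. Lyl1, a factor of early progenitors, fell by 2.85 ± 0.65 (adjusted p = 0.0269, limma; lost without EILP 1, EILP 5 or ILCp 1), and Ly6a, which encodes Sca-1, rose by 2.49 ± 0.56 (0.0238; lost without EILP 1, EILP 5, ILCp 1 or ILCp 2). Flt3, the receptor that marks the earlier ALP, lay below every EILP in all ILCp, with 6.84 through a median of 7.30 to 8.48 in EILP and 3.90, 4.85, 6.01, 4.97 and −3.47 in ILCp, but did not pass (−4.09 ± 1.41, adjusted p = 0.14). ILCp 5 was far below the other ILCp for Flt3. Without both Plzf-cre-GFP libraries the smaller difference of −2.45 passed (adjusted p = 0.0018), as did that without ILCp 5 alone (−2.67, 0.000703, limma). Irf8, a myeloid and dendritic cell factor, fell by 2.18 ± 0.49 (0.0243, limma), lost without any one of 7 libraries. Of 20 lymphoid progenitor genes Ikzf3 rose and Mef2c fell (−1.33 ± 0.32, 0.0364; lost without any one of 9 libraries). Dhrs2, Sh2d1b1, which encodes a signalling adaptor of NK cells, and Ctnnd2, a catenin, were among the deepest falls and held in every fit without 1 library. Ctnnd2 ran from 2.68 through a median of 3.47 to 4.53 in EILP and was at the zero level in ILCp, at −5.01, −5.50, −4.93, −4.93 and −4.93 (adjusted p = 6.27e-06, limma). The differences of Dhrs2 and Sh2d1b1 were −7.36 ± 1.03 and −6.87 ± 0.96.

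Of 91 named genes that passed, 40 held in each of the fits without 1 library, and of these Fbxl21 and Ctnnd2 passed also under the 16 other settings that held them, which leave out the level filter. Without both Plzf-cre-GFP libraries 49 of the 91 passed. Beside the genes given with that value above, calls lost there included those of Il2ra (0.0783), Smad1 (0.053), Ski (0.131), Xcr1 (0.0623), Selplg (0.181), Kit (0.0903), Icos (0.0541) and Ltb (0.122). The same held for Il18r1 (0.122), Klrb1b (0.0981), Il17re (0.0906), Il10ra (0.122), Nfkbiz (0.1), Gins1 (0.0901), Mcm7 (0.134), Npm1 (0.078) and Npnt (0.0578), and for Hk1 (0.0824), Mpo (0.0901), Pdgfrb (0.0819), Mef2c (0.0581), Hey1 (0.166), Dll1 (0.127), H2-D1 (0.0913) and Bik (0.0963). It also held for the falls of Gp9 (0.0541) and Sorcs2 (0.176, limma). Calls lost there but not listed here were all falls too. Lists in which no gene passed (limma) were the 18 interferon-stimulated genes (median 0.69), with 5 rises at an unadjusted p below 0.05 (7.37% of all genes), the 12 egress and Klf genes (median 0.42), with 3 rises, the 25 mitosis genes, with 1 fall, and the 16 B lineage genes (median −0.38), with 1 fall. Of 14 Notch genes 3 rose, Il2ra, Hey1 and Dll1, the last 2 lost without any one of 10 and 11 libraries, and of 18 MHC genes 1 rose, H2-D1 by 0.53 ± 0.11 (adjusted p = 0.0138, limma; 0.0752 without EILP 5). The Bcl2 family gave 1 rise in 17, Bik, lost without any one of 6 libraries.

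Dividing ILCp by reporter strain gave a second comparison, again with batch in the model. Of the 18607 genes, 14 differed between the 2 Plzf-cre-GFP and the 3 Tcf7EGFP libraries (0.0752%), 12 higher and 2 lower in Plzf-cre-GFP, and 845 at an unadjusted p below 0.05. None of the 14 was among the 598. The median absolute difference between strains was 0.54 over all genes and 0.36 over the 598. Of the 12, 8 were at the zero level in all Tcf7EGFP ILCp and in EILP, so no fold is given: Noxa1, an oxidase activator, stood at −4.31, −4.45 and −6.18 in ILCp 1 to ILCp 3 and at −0.57 and −0.05 in ILCp 4 and ILCp 5 (adjusted p = 0.000487, limma). Hoga1 (0.00257), Ogdhl (0.00262), and RP23-268A12.2 (0.0064) had the same shape, and Pacsin3 (0.00817) was at the zero level in 2 of the 3 Tcf7EGFP ILCp. Hnf4a, a liver and gut transcription factor, was the other way round, at 2.50, 2.70 and 2.32 in the Tcf7EGFP ILCp and at the zero level in both Plzf-cre-GFP libraries (−2.81), with EILP from 2.01 through a median of 2.89 to 6.21 (adjusted p = 0.0144, limma). Its call held in each fit without 1 library and was lost under 8 of 15 other settings. RP24-87I22.4 was the other gene that was lower (adjusted p = 0.00818), at the zero level in both Plzf-cre-GFP and in 2 of the Tcf7EGFP ILCp. Cd180 was lower in Plzf-cre-GFP ILCp by 5.87 but missed the threshold (adjusted p = 0.0593). Flt3 missed it too (adjusted p = 0.959), with ILCp 4 within the range of the Tcf7EGFP ILCp and ILCp 5 alone below them. The strain and the other differences of ILCp 4 and ILCp 5 cannot be told apart, as both are in batch 4 with 1 Tcf7EGFP ILCp.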

How the data were processed

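RNA from the sorted cells was turned into libraries with a SMARTer Ultra Low and Nextera XT protocol that does not mark strand, per the labels' protocols. In the submitters' processing notes stand limma, edgeR, STAR 2.4.0h, bcl2fastq 1.8.4 and the build mm10, without role or order. How reads were assigned to genes, and with which annotation, is not stated there. The authors deposited 1 table of log2 CPM values for 18607 genes and 19 libraries, with 9 empty columns. From the values, deposited log2 levels were cleared of batch differences with the groups kept: the largest batch coefficient beside the groups was 1.84e-08, against 6.01 for batch alone. No header or label records this step. Values raised from log2 summed to 908573 to 1035200 per library, read totals are unknown, and no pseudocount was added here.

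The test was that of limma 3.58.1 under R 4.3.3 (moderated, mean-variance trend, two-sided) over all 19 libraries with 3 groups and batch as a fixed effect, Benjamini-Hochberg adjusted p below 0.05 over all genes. The same model with ILCp divided by reporter strain gave the strain comparison. A gene was at the zero level in a group where its libraries lay at the value their batch gives to genes without reads (judged in 4 EILP and 3 ILCp libraries). No fold is given against such a group, although medians over lists and over all rises or falls include such genes. Between strains, a library was at this level where it was tied with another at the lowest value of its batch. Gene positions are from GENCODE M21 on GRCm38, in which 17377 symbols matched. The members and gene lists were chosen with earlier results of these data known.

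Named genes were a fixed set of sorting, lineage and factor genes, from each list at most 3 that rose and 3 that fell, by smallest p, the 10 largest rises and falls among genes above the median level with 1 sign in batches 1, 2 and 4, the 10 smallest p in each direction, and the 5 smallest p in each direction between reporter strains. The values of 2 named genes are not reported here. On simulated data with 200 changed genes of 18607 in 10 draws, ILCp versus EILP recovered 9.25%, 28.1% and 57.3% at log2 changes of 1, 2 and 4, and 5.99% of calls were false. Deviations from the group means of same-numbered EILP and ILCp libraries had r of −0.64, −0.526, −0.0157, 0.0431 and −0.293. Numbers 1, 2 and 5 share a batch, in which the batch clearing makes deviations offset each other, and numbers 3 and 4 do not. These values therefore cannot show whether the numbers pair the samples. No 2 libraries held the same values. The alternatives were other batch terms, fewer libraries or batches, other scaling, a level filter, a minimum fold change and other limma variance settings.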

Additional observations from a re-analysis of the deposited data

Results flagged for a closer look

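In 232 groups of 5 or 7 libraries (each named gene in each group), 1 library stood apart from the others in 25. The rule flags about 1 in 20 groups of independent, normally distributed values, and these values are not of that kind. They were cleared of batch, the genes were picked from the same data, and zero-level genes hold values set by the batch. No excess can therefore be read from the count. EILP 5 was that library in 9 of the 25. It was low for Id2 (8.74 log2 CPM), Gp9 (−1.37), Gm973 (−5.29), Noxa1 (−6.18), Hoga1 (−6.15), Ogdhl (−6.22) and RP23-268A12.2 (−5.83), and high for Flt3 (8.48) and Gm12349 (−4.37). For 6 of these, Gm973, Gm12349, Noxa1, Hoga1, Ogdhl and RP23-268A12.2, EILP were at the zero level, so the value is the one batch 4 gives to genes without reads and not a level of EILP 5. EILP 2 was low for Tox (7.52) and Ltb (−2.59), and EILP 6 was high for Nmur1 (2.10) and Lta (−0.53).

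Among ILCp, ILCp 1 stood apart for Tbx21 (−2.33) and Sorcs2 (−2.08), ILCp 2 for Ski (5.90), Itgb2 (7.32) and Ctnnd2 (−5.50), and ILCp 3 for Bcl11b (7.34) and Slc9a9 (7.98). Of the Plzf-cre-GFP libraries, ILCp 4 did so for Eomes (1.04) and Gp9 (−0.048), and ILCp 5 for Flt3 (−3.47), Smad1 (5.57) and Nmur1 (7.74). Ctnnd2 and Sorcs2 were at the zero level in ILCp, so their values depend on the value a batch gives to genes without reads.

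Between the 2 reporter strains of ILCp, 7 named genes differed in limma at an adjusted p below 0.05. Noxa1, Hoga1, Ogdhl and RP23-268A12.2 were at the zero level in the Tcf7EGFP ILCp and had mean levels of −0.31, −0.41, −0.17 and −1.65 log2 CPM in the Plzf-cre-GFP libraries. Pacsin3 was higher in the latter by 5.76 log2 units, a size that depends on the zero level of 2 Tcf7EGFP libraries. RP24-87I22.4 and Hnf4a were at the zero level in both Plzf-cre-GFP libraries and had mean levels of −3.66 and 2.50 in the Tcf7EGFP ILCp.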

How the results depend on the processing

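Of 18607 genes, 598 passed for ILCp versus EILP. The count moved to 3047 with no batch term, 8201 with batch as a random effect, 183 with ILCp and EILP libraries only, 233 with batches 1, 2 and 4 only, 361, 259 and 258 without batch 1, 2 or 4, 254 without both Plzf-cre-GFP libraries and 280 in limma without trend. It was between 434 and 669 with a minimum fold change, quantile normalization, median centring, the level filter and robust variance. Batch 4 alone holds 1 EILP library, and the genes that passed there were mostly others, as given above. Leaving out 1 library gave 224 (without EILP 5) to 615 (without ILCp 3). The values had batch removed before deposit, so fits without a batch term count residual degrees of freedom that are not there (16 in place of 12). The replicate block, whose pairing of these samples could not be tested, gave 1484 genes as a fixed effect in place of batch and 464 as a random effect beside batch.

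Between reporter strains 14 genes passed. The count was 6 with no batch term, 0 with batch as a random effect (143 at an unadjusted p below 0.05), 42 with ILCp and EILP only, 29 with batches 1, 2 and 4, 531 with batch 4 alone, 33 and 30 without batch 1 or 2, 9 with quantile normalization, 0 in genes above the median level (321 unadjusted), 33 in limma without trend, and 15 to 236 without 1 library (236 without ILCp 4 and 134 without ILCp 5). The replicate block gave 0 (fixed, 968 at an unadjusted p below 0.05) and 9 (random). This comparison could not be fitted without batch 4 or without the Plzf-cre-GFP libraries.

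Signs changed in 4 genes that did not pass. Tcf7 was 0.43, 0.32 and 0.36, Zbtb16 0.57, 0.30 and 0.22 and Il2rb 0.98, 0.82 and 1.00 with ILCp and EILP only, batches 1, 2 and 4, and batch 4 alone. Zbtb16 was 0.0797 without batch 4. Itgb7 was −0.0936 without batch 4 and −0.0807 (without EILP 5) to 0.313 (without ILCp 1) without 1 library. The cause was not tested. Depth is unknown, and folds from levels near the zero level depend on the value the table gives to genes without reads.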
